A study of Rattus norvegicus with 11 samples.

Results

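The desmin, synemin and dystrophin complex genes were followed in the bladder of rats with partial bladder outlet obstruction (PBOO). The set was chosen by gene symbol, with earlier results of these data known. It holds 10 of the 18507 genes in the table: Des, Synm, Dmd, Utrn, Dag1, Sgca, Sgcb, Sgcd, Sgce and Sspn. All 10 symbols were found once. RNA-seq had been performed on bladder tissue of female Sprague-Dawley rats, which the methods give as about 6 months old at the start. The methods do not say whether the whole bladder or a part of it was used. In the PBOO group (BOO in the sample records) a tube was passed through the urethra and the bladder was exposed through an abdominal incision. A suture was then tied around the bladder neck and urethra and the tube was drawn out. The control rats, called normal in the sample records, received only an abdominal incision that was sutured. Both groups thus had surgery of the abdominal wall, but effects of the tube and of exposing the bladder cannot be told apart from those of the tie. Tissue was taken at week 4 (3 PBOO and 3 normal samples) and at week 5 (2 PBOO and 3 normal samples). Each sample is treated as 1 animal here, but the labels do not say so, and the spread between samples may be partly technical.

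Desmin is the main intermediate filament protein of muscle cells, and synemin is a large filament protein that assembles with it and ties it to the membrane. Dystrophin, or its homologue utrophin, binds the actin cytoskeleton on the inside of the membrane and dystroglycan across it, and dystroglycan binds laminin outside the cell. The sarcoglycans and sarcospan are membrane proteins that hold this complex together. In smooth muscle, such as the detrusor of the bladder wall, desmin filaments join the dense bodies and dense plaques to which the contractile filaments are anchored, and the dystrophin complex lies in the membrane between the plaques.

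Expression was given by the authors as FPKM, a count of fragments scaled to the exon length of the gene and to the mapped fragments of the sample, so that levels can be compared between genes per unit of length. Differences are given as log2 fold changes, PBOO minus normal, of log2(FPKM + 0.1), each with its standard error (SE) from limma. A gene is said to have risen or fallen where the unadjusted p was under 0.05 and the change at least 2-fold, and the Benjamini-Hochberg adjusted p over all genes tested is printed beside it. Adding 0.1 makes changes of low genes smaller than the ratio of their FPKM values.

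The samples differed in more than the 10 genes. The summed FPKM of 8 smooth muscle markers lay between 23586 and 25013 in the normal samples of week 4 and between 45399 and 69866 in the PBOO samples. Of the 8 markers, 2 rose at week 4, Actg2 (mean 4421 to 22069.6 FPKM) and Cnn1, and the median log2 fold change was 0.50. At week 5 the sum was 22274 to 26611 in the normal samples but 859 to 1661 in the PBOO samples, in which 8 of 8 markers fell, none of them to 0. The 7 fibroblast markers also fell at week 5 (1337 to 1741 FPKM in the normal and 110 to 162 in the PBOO samples). The sum of the 8 urothelial markers was 5688 to 6729 in the normal and 5438 to 6185 in the PBOO samples of week 5, but 1 of the 8 rose, Krt5 (mean 134 to 1819.5 FPKM), and 3 fell, among them Krt20 (66.9 to 0.661 FPKM). At week 4 the urothelial sum was 5309 to 6545 FPKM in the normal and 3094 to 3940 FPKM in the PBOO samples. Immune markers summed to 28.1 to 72.6 FPKM in the normal and to 184 to 656 in the PBOO samples of week 5. Normal week 4 replicate 1 was the lowest of its group for the fibroblast (1048 FPKM) and immune (55.3 FPKM) markers. In bulk tissue, fewer cells of a type, less RNA per cell and a difference in the part of the bladder sampled cannot be told apart. Depth is unknown because the table holds no counts.

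RefSeq promoter windows (build GRCr8, from 250 bases before to 50 bases after a transcript start) were read for the members, since the samples of Des, Synm and Dmd were set apart from normal in the same direction as each other at each week. The table held 11 windows for 9 of the members. There was no entry for Dag1. The windows of Des, Synm and Dmd are shown 5′ to 3′ on the strand of the gene, with matches to 4 muscle or promoter motifs in capitals. These motifs were the CArG box bound by serum response factor, the E-box CANNTG bound by helix-loop-helix factors, the MCAT element CATTCC and the GC box GGGCGG, each searched on both strands.
Des promoter, chr9:84299376-84299675, plus strand: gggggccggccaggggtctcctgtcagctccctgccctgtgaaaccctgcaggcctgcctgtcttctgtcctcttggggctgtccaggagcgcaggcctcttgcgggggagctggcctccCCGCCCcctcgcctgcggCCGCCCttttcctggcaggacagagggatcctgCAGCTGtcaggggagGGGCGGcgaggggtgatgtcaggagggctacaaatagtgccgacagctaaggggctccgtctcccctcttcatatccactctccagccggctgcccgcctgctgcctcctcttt
Synm promoter, chr1:130773775-130774074, minus strand: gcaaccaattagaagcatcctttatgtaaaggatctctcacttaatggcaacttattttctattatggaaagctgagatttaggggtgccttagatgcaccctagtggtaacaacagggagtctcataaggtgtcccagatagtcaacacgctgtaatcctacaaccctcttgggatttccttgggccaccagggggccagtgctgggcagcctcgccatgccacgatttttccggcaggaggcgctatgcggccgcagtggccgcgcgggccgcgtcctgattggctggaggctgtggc
Dmd promoter, upstream start, chrX:51205836-51206135, plus strand: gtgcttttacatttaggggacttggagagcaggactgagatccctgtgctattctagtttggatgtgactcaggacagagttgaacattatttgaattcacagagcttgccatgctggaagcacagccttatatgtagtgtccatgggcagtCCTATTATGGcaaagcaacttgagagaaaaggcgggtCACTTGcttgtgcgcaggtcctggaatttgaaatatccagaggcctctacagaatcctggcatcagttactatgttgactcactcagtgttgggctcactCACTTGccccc
Dmd promoter, downstream start, chrX:53278763-53279062, plus strand: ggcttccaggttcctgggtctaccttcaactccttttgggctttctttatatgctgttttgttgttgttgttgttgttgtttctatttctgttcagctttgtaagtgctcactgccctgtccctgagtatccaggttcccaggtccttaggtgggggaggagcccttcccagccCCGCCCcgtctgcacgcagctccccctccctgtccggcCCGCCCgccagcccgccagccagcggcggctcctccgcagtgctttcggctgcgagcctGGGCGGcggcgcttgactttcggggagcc

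The Des window held 3 GC boxes, with first bases at -130, -112 and -64 from the start, and 1 E-box at -79. The upstream Dmd window held the only CArG box among the members' windows, at -98 from the start, and 2 E-boxes, at -61 and 39. The downstream Dmd window held 3 GC boxes and no match to the other motifs, and a further Dmd window overlaps it. None of the 4 motifs was found in the Synm window. Of the 11 windows, 1 held a CArG box, 5 an E-box, 2 an MCAT element and 4 a GC box. Over all 33469 windows of the table the shares were 1.64%, 72.1%, 14.2% and 33.1%. The matches describe these letters only.

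In normal bladder the members covered a wide range of levels. At week 4 the order of the mean FPKM was Des (2242), Synm (165), Sgce (72.6), Sgcb (55.0), Dag1 (40.9), Sspn (25.0), Utrn (21.1), Dmd (17.5), Sgcd (10.5) and Sgca (10.4). Neighbours in this order did not overlap between samples, except Sspn with Utrn and Sgcd with Sgca. At week 5 the order of the normal samples began with Des (2653), Synm (170.0) and Dag1 (65.8) and ended with Utrn (6.55), Sgcd (3.65) and Dmd (2.06). Dystrophin was thus the lowest of the 10 genes there, with a mean 8.50 times lower than in the normal samples of week 4. The normal mean of week 4 was 2.09 to 3.23 times that of week 5 for Sgcb, Sspn, Sgce, Sgcd and Utrn, and 0.620 to 0.972 times for Dag1, Des, Sgca and Synm. The weeks also differed in which genes were listed at 0, with 4871 genes at 0 in every sample of week 4 and 403 in every sample of week 5. Among 657 genes whose week 5 mean reached 100 FPKM, 62 were at 0 throughout week 4. Week and processing cannot be told apart in levels set across weeks, and PBOO was compared with normal within each week.

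**Figure D1:**
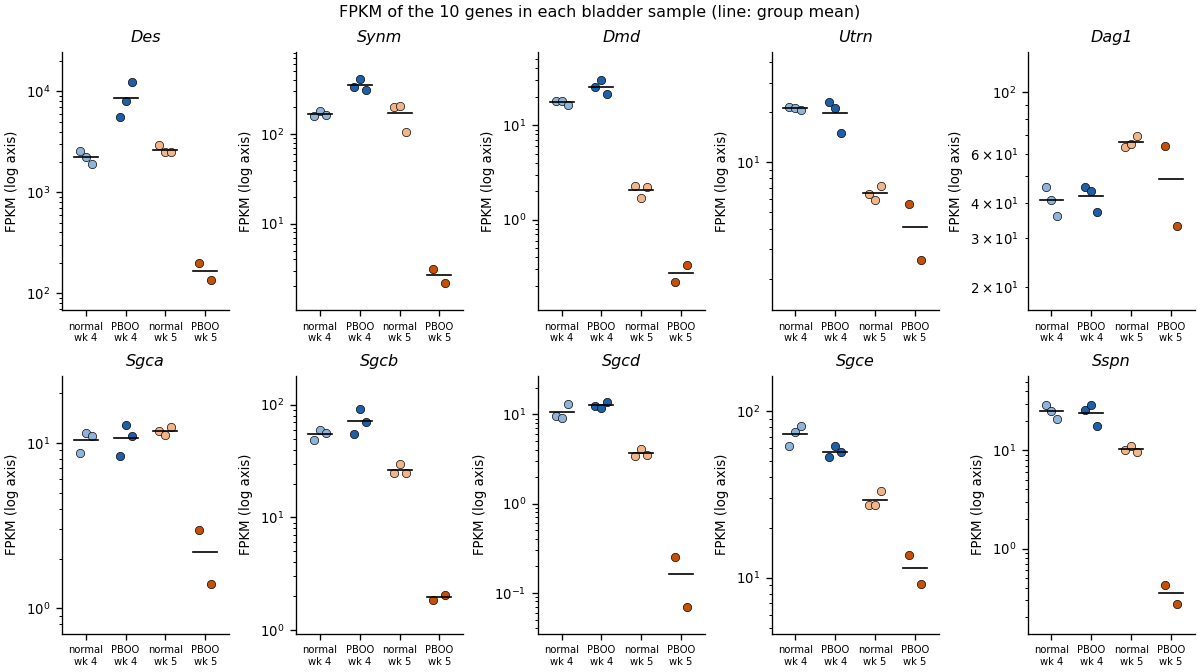
FPKM (log axis, a separate range per panel) of the 10 genes in each sample, grouped as normal and PBOO at weeks 4 and 5, with a line at each group mean. Des and Synm lay higher in the 3 PBOO samples of week 4, and 9 of the 10 genes lay below all normal samples in both PBOO samples of week 5.

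At week 4, Des and Synm, the filament genes, rose in PBOO, and none of the 10 genes fell. Dmd was higher in each PBOO sample but by less than 2-fold, and the log2 fold changes of the other 7 members lay between -0.34 and 0.37. This made 2 of 10 members that rose, against 2.46% of the 11320 genes tested, and 0 that fell, against 2.45%. The median log2 fold change of the members was 0.16, beside -0.25 over all genes tested. Median-ratio scaling of the samples moved the latter to -0.01 and the calls over all genes from 278 higher and 277 lower to 412 and 117, while the members' counts were again 2 and 0. At week 5, 8 of the 10 members fell in PBOO, by 2.58-fold to 59.9-fold, and the remaining 2, Utrn and Dag1, did not pass the test. Of all 13685 genes tested, 12.6% fell and 9.82% rose. The median log2 fold change of the members was -3.10, beside 0.12 over all genes.

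Des, the desmin gene, had 2561, 2248 and 1917 FPKM in the normal samples of week 4 and 5520.4, 8055 and 12288 FPKM in the PBOO samples (replicates 1 to 3). Each PBOO sample was above each normal sample, and the PBOO samples differed among themselves more than the normal ones did. The mean (± SD, n = 3 each) was 2242 ± 322 FPKM in the normal and 8621 ± 3419 FPKM in the PBOO group, and Des rose by 1.88 on the log2 scale (SE 0.31, adjusted p = 0.0523 by limma). At week 5, Des was at 2945, 2497 and 2516 FPKM in the normal samples and at 199 and 135 FPKM in the PBOO samples. Both PBOO samples were far below each normal sample of either week. Des fell by 4.01 on the log2 scale (SE 0.22, adjusted p = 0.000325 by limma), which is 16.1-fold.

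Synm, the synemin gene, had 157, 178 and 161 FPKM in the normal and 331, 407 and 311 FPKM in the PBOO samples of week 4. The groups did not overlap, and the increase of 1.07 (log2, SE 0.13) made Synm the only member past an adjusted p of 0.05 with a 2-fold change at week 4 (adjusted p = 0.0483 by limma). By that rule 0.265% of all genes rose. Over 15 alternatives the adjusted p of Synm ranged from 0.0131 without PBOO week 4 replicate 1 to 0.213 without normal week 4 replicate 3, and 8 of them, including 5 of the 6 that left out a sample, did not keep it past that rule. Des passed it in 4 of the 15. Without PBOO week 4 replicate 2 the log2 fold change of Synm was 0.96, under 2-fold. The normal samples of week 5 had 200.2, 205 and 105 FPKM, replicate 3 being the low one, and the PBOO samples 3.15 and 2.17 FPKM. Synm fell by 5.90 on the log2 scale (SE 0.35, adjusted p = 0.000395 by limma), the widest change among the members. In the order of levels it went from the second place among the 10 genes in normal bladder to the fifth in the PBOO samples of week 5, where its range overlapped those of Utrn and Sgca.

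Because both filament genes moved in the same direction, their ratio within each sample was compared. The log2 ratio of Synm to Des at week 4 was -3.75 ± 0.24 (SD, n = 3) in normal and -4.56 ± 0.66 (SD, n = 3) in PBOO bladder by FPKM. At week 5 it was -4.02 ± 0.51 (SD, n = 3) in normal and -5.97 ± 0.02 (SD, n = 2) in PBOO bladder, so that Synm lay 3.86-fold lower relative to Des. The groups were apart at both weeks, but at week 4 only just, with normal replicate 1 at -4.03 and PBOO replicate 1 at -4.06. The week 4 difference was -1.05 to -0.43 with a sample left out. The normal samples of week 5 were at -3.88, -3.61 and -4.59, replicate 3 being the low one. The two-sided exact permutation test gave p = 0.1 at week 4 and p = 0.2 at week 5, the smallest values that 3 against 3 and 3 against 2 samples allow, with an adjusted p of 0.2 over the 8 ratio tests.

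Dmd, the dystrophin gene, had 18.1, 18.2 and 16.2 FPKM in the normal and 25.5, 29.8 and 21.6 FPKM in the PBOO samples of week 4. The PBOO samples were all higher, but the log2 fold change of 0.54 (SE 0.14, adjusted p = 0.0788 by limma) was below 2-fold. With Des and Synm, Dmd was 1 of 3 members in which each PBOO sample was above each normal one, whereas 6.63% of all genes at week 4 had that pattern and 34.9% had the opposite one. At week 5, Dmd was at 2.27, 1.70 and 2.22 FPKM in the normal samples and at 0.219 and 0.328 FPKM in the PBOO samples. It fell by 2.54 on the log2 scale (SE 0.32, adjusted p = 0.00399 by limma).

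Utrn, which encodes utrophin and is known to be expressed more widely than dystrophin, did not pass the test at either week. Its normal samples of week 4 were close to each other at 21.4, 21.3 and 20.6 FPKM, and the PBOO samples had 23.0, 21.3 and 14.9 FPKM. The groups overlapped, and the log2 fold change was -0.12 (95% interval -0.53 to 0.29, adjusted p = 0.629 by limma). The sign at week 4 was opposite with the other scalings of the samples (0.13 and 0.091). At week 5, Utrn was at 6.50, 5.97 and 7.17 FPKM in the normal samples and at 5.62 and 2.59 FPKM in the PBOO samples. Although both PBOO samples were lower, replicate 1 was only just below the lowest normal sample, and the difference of -0.76 (log2, 95% interval -1.59 to 0.07) did not pass the test (adjusted p = 0.142 by limma). Without PBOO week 5 replicate 1 it was -1.302 and passed, and without replicate 2 it was -0.21.

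The proportion of the 2 homologues was compared within the samples. The log2 ratio of Utrn to Dmd was 0.25, 0.23 and 0.34 in the normal and -0.15, -0.49 and -0.54 in the PBOO samples of week 4. The FPKM of Dmd thus exceeded that of Utrn in each PBOO sample and in none of the normal ones. Which gene is the higher rests on the exon lengths used, and FPKM per gene does not separate transcripts from the different Dmd starts. At week 5 the log2 ratio was 1.52, 1.81 and 1.69 in the normal and 4.68 and 2.98 in the PBOO samples. The groups were apart at both weeks and in opposite directions, with PBOO 1.58-fold lower at week 4 and 4.46-fold higher at week 5. Exact permutation gave p = 0.1 and p = 0.2 (two-sided), again the smallest possible, and 0.2 after adjustment over the 8 tests. Both PBOO samples of week 5 had under 0.5 FPKM of Dmd, and the SD of their log2 ratio was 1.20, against 0.15 in the normal samples.

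**Figure D2:**
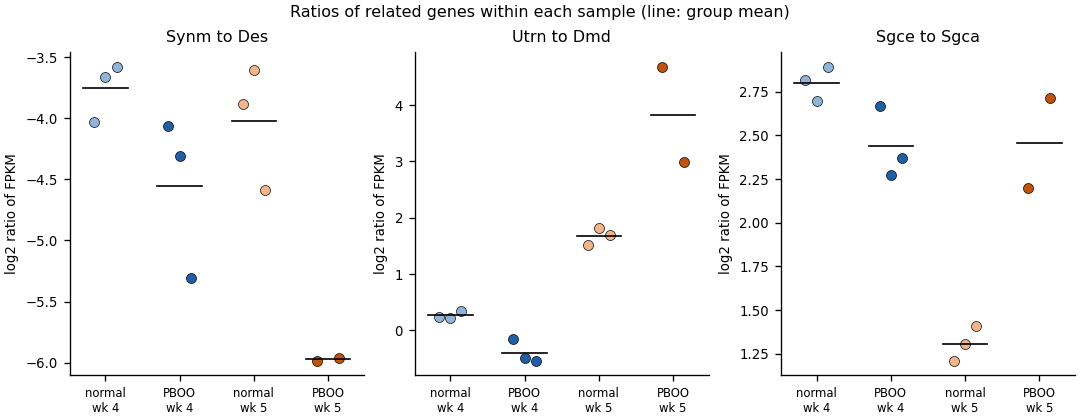
Log2 ratios of FPKM within each sample for Synm to Des, Utrn to Dmd and Sgce to Sgca (vertical axes, not starting at 0), by group, with a line at each group mean. PBOO lay below normal in the 3 ratios at week 4; at week 5 it lay below for Synm to Des and above for Utrn to Dmd (mean 3.83 against 1.67) and Sgce to Sgca (mean 2.45 against 1.31).

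Dag1 encodes both subunits of dystroglycan, the laminin receptor at the centre of the complex. At week 4 it was measured at 45.5, 41.0 and 36.0 FPKM in the normal and 45.6, 44.1 and 37.1 FPKM in the PBOO samples. The ranges overlapped almost entirely, and the log2 fold change was 0.05 (95% interval -0.26 to 0.36, adjusted p = 0.799 by limma). At week 5, Dag1 was at 63.3, 64.9 and 69.4 FPKM in the normal samples and at 64.2 and 33.0 FPKM in the PBOO samples. PBOO replicate 1 lay within the normal range and replicate 2 well below it. Dag1 was the only member whose groups overlapped at week 5 (log2 fold change -0.51, 95% interval -1.21 to 0.18, adjusted p = 0.216 by limma). It was -0.99 without PBOO week 5 replicate 1 and -0.036 without replicate 2. In the order of mean FPKM it held the fifth place in both groups of week 4, the third in the normal samples of week 5 and the second, after Des, in the PBOO samples of week 5.

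The sarcoglycan genes fell at week 5 to different degrees. Sgcb, for beta-sarcoglycan, a core subunit in smooth as well as striated muscle, had 48.6, 59.8 and 56.6 FPKM in the normal and 55.4, 90.6 and 70.5 FPKM in the PBOO samples of week 4. The PBOO replicates 2 and 3 were the higher ones, but the groups overlapped (log2 fold change 0.37, SE 0.19, adjusted p = 0.214 by limma). At week 5 it was at 24.5, 29.6 and 24.7 FPKM in the normal and at 1.86 and 2.07 FPKM in the PBOO samples. Sgcb fell by 3.67 on the log2 scale (SE 0.15, adjusted p = 0.000215 by limma), with the closest pair of PBOO samples among the members.

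Sgcd, for delta-sarcoglycan, the partner of the beta subunit in the core, was at 9.57, 9.08 and 12.9 FPKM in the normal and 12.3, 11.8 and 13.7 FPKM in the PBOO samples of week 4. The groups overlapped through normal replicate 3 (log2 fold change 0.27, SE 0.17, adjusted p = 0.284 by limma). At week 5 the normal samples had 3.40, 4.06 and 3.49 FPKM and the PBOO samples 0.253 and 0.0694 FPKM. It fell by 3.93 on the log2 scale (SE 0.39, adjusted p = 0.00189 by limma) to the lowest level of any member.

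Sgca, for alpha-sarcoglycan, is known mainly from striated muscle, and Sgce encodes its widely expressed homologue epsilon-sarcoglycan. Sgca was at 8.71, 11.5 and 11.02 FPKM in the normal and at 8.30, 12.7 and 11.04 FPKM in the PBOO samples of week 4, with a log2 fold change of 0.03 (SE 0.20, adjusted p = 0.930 by limma). The ranges of the groups overlapped. At week 5 it was at 11.9, 11.1 and 12.4 FPKM in the normal and at 2.99 and 1.41 FPKM in the PBOO samples, and fell by 2.46 on the log2 scale (SE 0.31, adjusted p = 0.00407 by limma).

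Sgce was at 61.4, 74.5 and 81.8 FPKM in the normal and at 52.7, 61.6 and 57.0 FPKM in the PBOO samples of week 4. The groups overlapped only between 61.4 and 61.6 FPKM, and the log2 fold change of -0.34 (SE 0.13, adjusted p = 0.138 by limma) was under 2-fold. Its normal samples of week 5 had 27.4, 27.5 and 33.0 FPKM and its PBOO samples 13.7 and 9.21 FPKM. Sgce fell by 1.37 on the log2 scale (SE 0.20, adjusted p = 0.00657 by limma). The log2 ratio of Sgce to Sgca was 2.80 ± 0.10 in normal and 2.44 ± 0.20 in PBOO bladder at week 4 (SD, n = 3 each). At week 5 it was 1.31 ± 0.10 (SD, n = 3) in normal and 2.45 ± 0.36 (SD, n = 2) in PBOO bladder, 2.21-fold higher. The groups were apart at both weeks, and the exact permutation test gave its smallest values again (p = 0.1 and p = 0.2, two-sided, adjusted p = 0.2 over 8 tests).

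Sspn encodes sarcospan, a small membrane protein attached to the sarcoglycans. At week 4 it was at 28.8, 25.4 and 20.7 FPKM in the normal and at 25.6, 28.9 and 17.7 FPKM in the PBOO samples. The groups overlapped over most of their range (log2 fold change -0.07, SE 0.21, adjusted p = 0.828 by limma), and the sign was opposite with the other scalings (0.18 and 0.14). The normal samples of week 5 had 10.04, 11.2 and 9.57 FPKM and the PBOO samples 0.429 and 0.271 FPKM. Sspn fell by 4.54 on the log2 scale (SE 0.23, adjusted p = 0.000288 by limma).

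**Figure D3:**
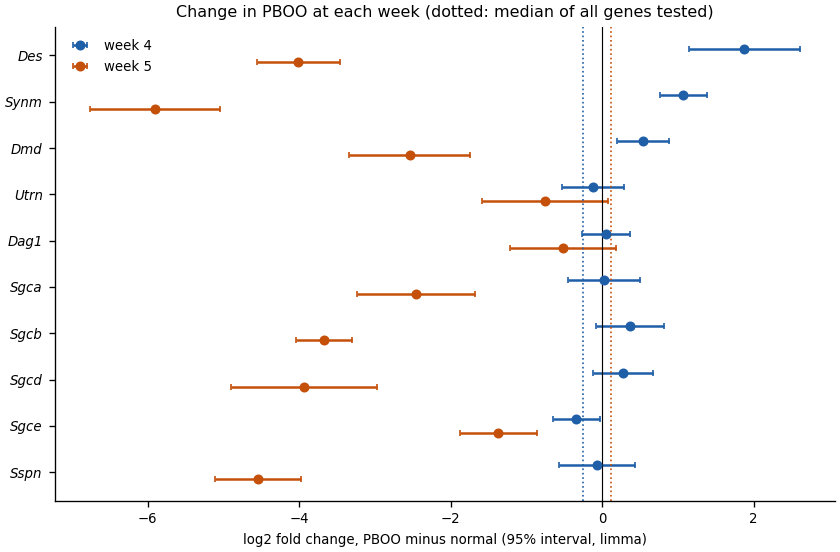
Log2 fold change (horizontal axis, PBOO minus normal) of each member at week 4 (blue) and week 5 (orange) with its 95% interval from limma, and dotted lines at the median of all genes tested. The week 5 intervals of Utrn and Dag1 include 0 and those of the other 8 members lie below it; at week 4 Des (1.88) and Synm (1.07) stand highest.

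All 8 decreases at week 5 also had an adjusted p under 0.05 by limma, a rule that 11.4% of all genes met in this direction. Both PBOO samples lay below each normal sample for 9 of the 10 members, against 25% of all genes, and above for 0 of the 10, against 35.3%. Dmd, Sgcd and Sspn were under 0.5 FPKM, the filter on the mean, in both PBOO samples and were tested because of their level in the normal samples. The size of their decrease depended on the amount added before logs. With 1 and with 0.01 FPKM added, the log2 fold change was -1.26 and -2.89 for Dmd, -2.004 and -4.66 for Sgcd, and -3.06 and -4.87 for Sspn, all past the test. With only 2 PBOO samples at week 5, each value of that group rests on a pair.

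Whether the effect of PBOO differed between the weeks was tested in a fit over the 11 samples. The effect at week 5 minus that at week 4 was lower by at least 2-fold, with p under 0.05, for 8 of 10 members, compared with 12.5% of the 11296 genes tested. By adjusted p the count was also 8, compared with 11.6%. Over all genes 1992 differences were higher and 1417 lower, and median-ratio scaling gave 1223 and 1718, with 8 members lower in both. The difference was widest for Synm (-6.98, SE 0.37) and Des (-5.89, SE 0.42), the genes that had risen at week 4. It was -4.48 for Sspn, -4.21 for Sgcd, -4.04 for Sgcb, -3.08 for Dmd and -2.49 for Sgca on the log2 scale. For the genes under 0.5 FPKM in both PBOO samples of week 5, the size depended on the amount added before logs. With 1 and with 0.01 FPKM added, the difference was -2.99 and -4.80 for Sspn, -2.25 and -4.93 for Sgcd, and -1.78 and -3.43 for Dmd. Sgce was just past the threshold at -1.03 (SE 0.25, adjusted p = 0.00885 by limma) and below 2-fold in the fit with 1 FPKM added before logs (-0.97). For Utrn (-0.64, adjusted p = 0.202 by limma) and Dag1 (-0.56, adjusted p = 0.170 by limma) no difference between the weeks was detected in the fit over 11 samples, and without PBOO week 5 replicate 1 both passed (-1.18 and -1.04). Without PBOO week 5 replicate 2 they were -0.091 and -0.086.

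Since smooth muscle markers moved with PBOO at both weeks, each member was also expressed relative to the mean log2 FPKM of the 8 markers in the same sample. These values are a description, and only that of Des was tested. At week 4, Des (1.15) and Synm (0.35) were higher than normal relative to the markers, with groups apart. The mean log2 difference was -0.19 for Dmd and -0.36 for Sgcb, where the groups overlapped. The remaining 6 members lay below the normal samples, from -0.45 for Sgcd to -1.07 for Sgce, beside a marker sum that was higher in each PBOO sample. On the same scale the median difference over 11219 genes was -0.99, with 0.918% of the genes above the normal samples and 81.2% below, against 2 and 6 of the 10 members.

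At week 5, 7 members were higher relative to the markers in both PBOO samples than in each normal sample. The mean log2 difference from normal was 3.95 for Dag1, 3.69 for Utrn, 3.09 for Sgce, 1.94 for Sgca, 1.53 for Dmd, 0.73 for Sgcb and 0.45 for Des. Below the normal samples were Synm (-1.49) and Sspn (-0.44), and for Sgcd (-0.32) the groups overlapped. The marker mean itself fell by 4.46 on the log2 scale, so that most genes lay higher relative to it. The median difference over 13414 genes was 4.59, above that of each member, and 97.3% of them were above and 0.477% below the normal samples, against 7 and 2 of the 10 members. For Des the exact permutation test of this ratio gave p = 0.1 at week 4 and p = 0.2 at week 5, the smallest possible, and 0.2 after adjustment over 8 tests. The part of the marker change in the members' change was not tested.

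**Figure D4:**
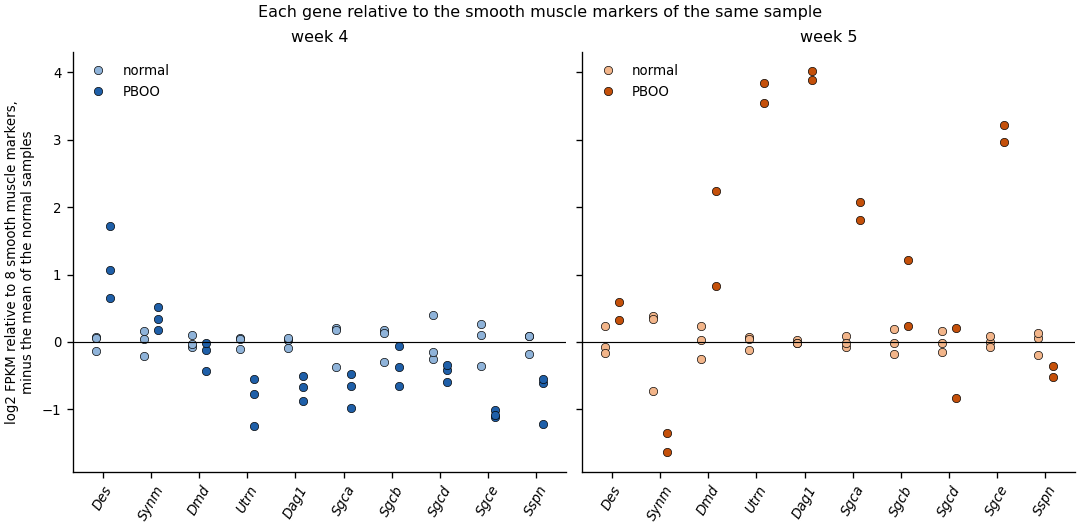
Log2 FPKM of each member minus the mean log2 FPKM of 8 smooth muscle markers in the same sample, set to 0 at the mean of the normal samples, at week 4 (left) and week 5 (right). Points are samples; Utrn, Dag1 and Sgce stand about 3 to 4 log2 units above normal in the PBOO samples of week 5, Des stays within 1 unit at week 5, and Synm lies below. The median over all genes on this scale was -0.99 at week 4 and 4.59 at week 5.

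The genes nearest to Des and Dmd in pattern were looked up among 9970 genes. The measure was the root mean square difference of log2(FPKM + 0.1) over the 11 samples, with each gene centred within each week. Those nearest to Des were Actg2 (0.18), the gamma smooth muscle actin, Cnn1 (0.18), for calponin, Casq2 (0.25), for calsequestrin, Cryab (0.26), the small heat shock protein that binds desmin, and Flnc (0.28), for filamin C. The nearest member was Sgcb at rank 93 (0.65), and Synm stood at rank 213 (0.78). Genes nearest to Dmd were Numbl (0.13), Cacna1c (0.15), the L-type calcium channel subunit, Clmp (0.15), Plcl1 (0.16) and Rap1gap2 (0.16), and the nearest member was Sgca at rank 229 (0.41). Since all points share the same 11 libraries, these distances describe the samples and have no test.

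The other genes of the pathway were taken in 5 lists with 75 genes in all. Of these, 10 were listed at 0 in every sample of week 4, among them Dtna, Ank2, Lama2, Lamb1 and Hspg2, and 1, Sgcz, in every sample of week 5. Among 15 further partners of the dystrophin complex (syntrophins, dystrobrevins, caveolins and ankyrins among them), 10 were tested at week 4, of which 1 rose and 0 fell (median log2 fold change 0.00). Of all genes tested at week 4, 2.46% rose and 2.45% fell. The summed skeletal muscle markers were 197 to 341 FPKM in the normal and 378 to 3106 FPKM in the PBOO samples of week 4. The PBOO sums were mostly Acta1 (257, 783 and 2741 FPKM), an actin whose reads may be shared with near-identical actins. Of the 8 skeletal muscle markers tested, 2 rose and 0 fell, but the median log2 fold change was -0.70. The part of these markers in the values of this list was not tested. At week 5, 6 of the 10 partners tested fell (12.6% of all genes tested) and 0 rose (9.82%), with a median of -2.85. Among them were Sntg2 (-4.24, from 6.23 ± 0.07 to 0.238 ± 0.067 FPKM) and Dtna (-3.87, from 8.37 ± 1.57 to 0.486 ± 0.179 FPKM), which encode a syntrophin and alpha-dystrobrevin on the inner side of the complex. Cav3, Cav1 and Ank2 also fell. Sntg2, Dtna and Cav3 had PBOO means under 0.5 FPKM (0 for Cav3), the filter on the mean. They were tested because of their level in the normal samples, and the count of 6 includes them.

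Ligands of dystroglycan in the matrix include the laminins, agrin and perlecan. At week 4, 1 of 7 tested rose (2.46% of all genes tested) and 0 fell (2.45%), with a median of 0.51. The gene that rose was Lamc1, the laminin gamma 1 chain (46.8 ± 7.11 to 101 ± 20.6 FPKM, log2 fold change 1.10, adjusted p = 0.0534 by limma). At week 5, 5 of 9 fell (12.6% of all genes tested) and 0 rose (9.82%), with a median of -1.01. The laminin chains Lama2 (-2.57) and Lama4 (-1.88) and the perlecan gene Hspg2 (-1.45) were the largest, with adjusted p = 0.00719, 0.0129 and 0.00270 by limma. Lama2 had a PBOO mean of 0.453 FPKM, under the filter, and was tested because of its level in the normal samples. The 7 fibroblast markers, which also fell, are genes of matrix-producing cells, and their part was not tested.

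Enzymes that add the laminin-binding sugar to dystroglycan had medians of -0.14 at week 4 and -0.11 at week 5, beside -0.25 and 0.12 over all genes. None of 16 rose or fell at week 4 (3 had an unadjusted p under 0.05 in each direction by limma, with no fold threshold, as did 5.76% of all genes tested in the higher and 26.2% in the lower direction). Of all genes tested, 2.46% rose and 2.45% fell at week 4. At week 5, 1 of 18 fell (12.6% of all genes tested) and 0 rose (9.82%).

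Among other intermediate filament genes and partners of desmin, 2 of 13 rose at week 4 (2.46% of all genes tested), 0 fell (2.45%) and the median was 0.02. Flnc, for the Z-disc and dense body protein filamin C, went from 55.7 ± 14.9 to 205 ± 27.9 FPKM (log2 fold change 1.90, adjusted p = 0.0478 by limma), and Cryab from 117 ± 12.7 to 302 ± 113 FPKM (1.304, adjusted p = 0.0543 by limma). At week 5, 4 of 15 fell (12.6% of all genes tested) and 0 rose (9.82%), with a median of -0.50. Cryab (-4.17) and Flnc (-4.15) fell about as far as Des, Hspb1, another small heat shock protein, by less (-1.42), and Mtm1 just past 2-fold (-1.06). Vim (-0.65) and Plec (0.26), for vimentin and the cross-linker plectin, did not pass the test at week 5.

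The dense plaque and integrin genes, the other link between actin and the matrix, were higher on average at week 4. The median of the 14 tested was 0.64, and 2 rose and 0 fell, against 2.46% and 2.45% of all genes. With no fold threshold, 10 had a higher level at an unadjusted p under 0.05 by limma, against 5.76% of all genes. Those past 2-fold were Actn1, for alpha-actinin (162 ± 57.2 to 368 ± 47.8 FPKM, log2 fold change 1.23, adjusted p = 0.0541 by limma), and Itgb1, for integrin beta 1 (346 ± 25.3 to 809.8 ± 324 FPKM, log2 fold change 1.15, adjusted p = 0.0664 by limma). At week 5, 11 of 14 fell (12.6% of all genes tested) and 0 rose (9.82%), with a median of -1.93. The largest changes were in Lims2 (-3.98), Itga7 (-3.49), the integrin alpha 7 chain of muscle that binds laminin, and Csrp1 (-3.45), with adjusted p = 0.000663, 0.000638 and 0.000345 by limma.

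**Figure D5:**
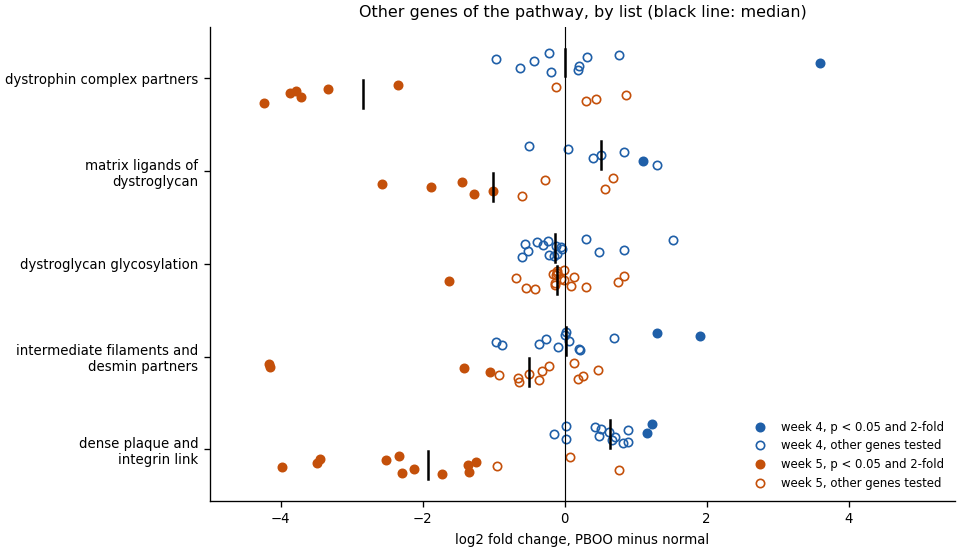
Log2 fold change (horizontal axis, PBOO minus normal) of each tested gene of the 5 pathway lists at week 4 (blue) and week 5 (orange); filled points had p under 0.05 and a 2-fold change, and black lines are medians. At week 5 the partners of the complex (median -2.85) and the dense plaque genes (median -1.93) lie lower than the glycosylation genes (median -0.11).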

How the data were processed

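Bladder RNA of 11 samples was analysed from 1 deposited table of FPKM values for 18507 genes, with each of its 11 columns mapped to a sample by the labels. Column names call the controls of week 5 adult. Every column of the earlier week has a name ending in Input, and no column of week 5 does. The labels do not say what Input stands for, and whether the weeks differed in library type was not tested. The authors prepared TruSeq libraries, sequenced pairs of 150 bases, trimmed with SeqPrep and Sickle, mapped with HISAT2 v2.0.4, assembled with StringTie v1.3.1 and computed FPKM with featureCounts. The submitters' processing notes name the mouse build mm10, whereas the symbols are those of rat (36 begin with RT1, 425 with RGD and 0 with H2-), so the build is uncertain and no coordinates were taken from the table. The authors state 1 excluded PBOO sample of week 5, which is not analysed here. Read counts are not analysed here and the depth is unknown. Values under 0.1 FPKM gave ratios of whole numbers up to 5, within 0.5%, for 9.32% to 13.3% of genes, against 7.75% to 11.4% after shuffling. Column sums were 424961 to 564343.

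Values were compared as log2(FPKM + 0.1) in R 4.3.3 with limma 3.58.1 (eBayes with a trend), within each week, keeping genes whose mean reached 0.5 FPKM, a filter all members passed. The difference between weeks was fitted over all 11 samples. Members relative to the smooth muscle markers were set beside all tested genes above 0 FPKM in every sample of the week. Genes were called at p under 0.05 (unadjusted) with at least 2-fold change. Adjusted p-values are Benjamini-Hochberg over all genes tested. Ratios were tested by exact permutation in scipy 1.17.1 (Python 3.11.15, numpy 2.4.6, pandas 2.3.3), and plots were made in matplotlib 3.10.9. From each pathway list up to 3 genes per direction and week were named, by absolute log2 fold change, among called genes whose mean reached 1 FPKM and whose groups were apart. Results for some genes of these lists are not reported here. Cav3, Cav1, Ank2, Mtm1, Vim and Plec were named after their values were seen, and so were Acta1, Krt5, Krt20, Cnn1 and the low replicates. The members and the lists were chosen with earlier results of these data known. Replicate numbers repeat across groups, and nothing in the labels pairs the samples. The fits were tested on simulated data with 200 changed genes. Pseudocounts, filters, scaling, moderation, a replicate block and left-out samples were tried as alternatives.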

Additional observations from a re-analysis of the deposited data

Results flagged for a closer look

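For 8 of the 10 genes the effect of PBOO was lower at week 5 than at week 4 in the fit over all 11 samples, which is what set them out for a closer look. The rule was an adjusted p under 0.05 by limma with a 2-fold difference. By it the effect was lower for 1314 (11.6%) of the 11296 genes tested and higher for 1759. The effect at week 5 minus that at week 4 was -5.89 on the log2 scale for Des and -6.98 for Synm, the filament genes that rose at week 4 and fell at week 5. It was -3.08 for Dmd, which lay above normal in each PBOO sample of week 4 and below in each of week 5. Among the sarcoglycans it was -2.49 for Sgca, -4.04 for Sgcb, -4.21 for Sgcd and -1.03 for Sgce, and it was -4.48 for Sspn. None of these 5 had passed the test at week 4, and each fell at week 5. The sizes of the differences for Dmd, Sgcd and Sspn depended on the amount added before logs. The sum of 8 smooth muscle markers went from a mean of 24075 FPKM in normal to 56373 FPKM in PBOO bladder at week 4. At week 5 the sum went from 24349 to 1260 FPKM. Of the 8 flagged genes, only Des and Synm rose at week 4, and all fell at week 5. Of the 8 markers, 2 rose at week 4 (Actg2 and Cnn1, with a median log2 change of 0.50 over the 8), and 8 fell at week 5. The part of the markers was not tested. The week and the set in which samples were processed cannot be told apart.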

How the results depend on the processing

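The count of members that fell at week 5 was 8 under each other pseudocount, filter, scaling, moderation and sample set tried except 9 without PBOO week 5 replicate 1 (Utrn then passed at -1.302), and it was 7 with a 4-fold threshold. The count of 2 that rose at week 4 was 1 with an adjusted p under 0.05, 4 with no fold threshold (3 of these were higher and 1, Sgce, lower), and 1 to 2 when each sample was left out, the 1 being without PBOO week 4 replicate 2. The members past the adjusted threshold at week 4 numbered 0 to 2 over the settings, while the count over all genes went from 42 to between 0 and 719, the highest without PBOO week 4 replicate 1. For the difference between weeks the count of 8 became 7 with a pseudocount of 1 and 7 to 10 with a sample left out. Sgce gave -0.97 with that pseudocount and -1.32 to -0.75 with a sample left out.

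Median-ratio scaling moved the median of all genes at week 4 from -0.25 to -0.01 and the calls over all genes from 278 up and 277 down to 412 up and 117 down (365 and 147 with quantile normalization). Under the 2 scalings Utrn at week 4 was 0.13 and 0.091 and Sspn 0.18 and 0.14, opposite to the main sign, and neither passed the test in the main comparison. Leaving out single samples gave -0.24 to 0.067 for Utrn, -0.22 to 0.14 for Sspn, -0.037 to 0.14 for Dag1 and -0.11 to 0.20 for Sgca at week 4. The log2 difference in the ratio of Utrn to Dmd at week 5 was 1.31 to 3.01 with a sample left out, and that of Sgce to Sgca 0.887 to 1.40. Where these ranges leave 1 PBOO sample at week 5, that sample is assumed to vary like the normal ones. The cause was not tested for any of these changes.

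With the replicate number as a block, 2 members rose at week 4, 8 fell at week 5 and 7 passed for the difference, where Sgce was -0.94, and over all genes 305 rose and 292 fell at week 4. Deviations of same-numbered samples correlated by 0.15, -0.02 and 0.23 at week 4, and those of differently numbered samples by -0.21 to 0.094. At week 5 the same-numbered values were -0.00081 and 0.12. With 2 PBOO samples the deviations there mirror each other, so these values cannot decide on a pairing. The numbers were not taken to pair the samples because nothing in the labels pairs them. Unknown depth limits the low values most, those of Dmd, Sgcd and Sspn in the PBOO samples of week 5.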
